A study of Mus musculus with 3 samples.

Results

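The comparison described here is that of heterozygous with wild-type embryonic mouse hearts: the library labelled Ncx1+/- against the library labelled Ncx1+/+. It was taken over all nuclei with at least 500 detected genes and within nuclei gated by marker genes, and it used 25867 of the 38192 nuclei kept in the 3 libraries (13562 Ncx1+/+ and 12305 Ncx1+/-). Single-nucleus RNA sequencing was performed on whole hearts at embryonic day 9.5. Each genotype, Ncx1+/+, Ncx1+/- or Ncx1-/-, was a pool of 5 flash-frozen hearts made into 1 library, with no further treatment and no Cre driver or reporter in the labels. The 12325 nuclei of the Ncx1-/- library were set beside the other libraries to find genes graded in the order Ncx1+/+, Ncx1+/-, Ncx1-/-. They also set a cut on Slc8a1 per nucleus, described below, and were compared with nuclei split by it. With 1 library per genotype there is no replicate check, so no p-value is given. The intervals are exact 95% intervals for counting error alone and say nothing of the spread between hearts, and the libraries are compared rather than the genotypes.

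Ncx1, encoded by Slc8a1 (ENSMUSG00000054640), is the sodium-calcium exchanger of the plasma membrane that carries calcium out of the cardiomyocyte after each contraction. It works beside the calcium pump Atp2a2 and the release channel Ryr2 of the sarcoplasmic reticulum and the L-type channel Cacna1c, and mouse embryos without it have no effective heartbeat and no circulation and die in mid-gestation. Heterozygous embryos are viable. When a tissue receives little oxygen, the transcription factor HIF-1 raises genes of glucose uptake, glycolysis and lactate export and of its own feedback loop.

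Promoters of 3 such genes, Bnip3, Ddit4 and Egln3, are shown. They were among 5 genes of the hypoxia and glycolysis list graded upward in both the cardiomyocyte and the endothelial nuclei described further on. Gapdh and Slc16a3, the others, are not shown because their windows held no bases upstream of the gene start in GENCODE. Bnip3 encodes a mitochondrial receptor for mitophagy, Ddit4 an inhibitor of mTORC1, and Egln3 a prolyl hydroxylase that marks HIF for decay. Each sequence holds up to 250 bases upstream of the gene's start in RefSeq (GRCm38.p6), 5′ to 3′ on the gene's own strand (minus for all 3), and capitals mark the letters ACGTG, the core of the HIF binding motif, found on either strand. In Bnip3 the capitals CACGTG hold 2 overlapping matches, 1 on each strand.
Bnip3, chr7:138909520-138909756: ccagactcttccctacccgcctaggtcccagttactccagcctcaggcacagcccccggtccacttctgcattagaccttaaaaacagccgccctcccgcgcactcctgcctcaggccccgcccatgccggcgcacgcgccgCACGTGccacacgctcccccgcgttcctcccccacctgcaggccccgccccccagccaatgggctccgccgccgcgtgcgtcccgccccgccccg
Ddit4, chr10:59951835-59952020: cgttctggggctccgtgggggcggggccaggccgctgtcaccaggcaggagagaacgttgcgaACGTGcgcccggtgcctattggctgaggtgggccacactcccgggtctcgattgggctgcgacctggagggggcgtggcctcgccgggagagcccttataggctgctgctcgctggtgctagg
Egln3, chr12:54203875-54204124: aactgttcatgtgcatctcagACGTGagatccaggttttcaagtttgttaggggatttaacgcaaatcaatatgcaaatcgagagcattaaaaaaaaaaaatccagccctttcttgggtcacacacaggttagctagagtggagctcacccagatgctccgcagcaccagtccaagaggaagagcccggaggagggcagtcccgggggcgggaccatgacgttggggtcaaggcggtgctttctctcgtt
The 5 letters stood in the 250 bases upstream of 5444 of 32851 promoters (16.6%) and of 19 of the 39 promoters (48.7%) matched to the hypoxia and glycolysis list, 4 of the 5 members graded upward in both gates among them. The first share is over all promoter windows and the second over the first window of each gene, so they differ in unit. All these counts are over the whole 250-base RefSeq windows, Gapdh and Slc16a3 included. The sequences shown were cut at the gene start in GENCODE. A match describes the letters and not a bound site.

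Over all kept nuclei the libraries were of like depth. The kept nuclei held 59755846 UMIs (unique transcript counts) in Ncx1+/+, 48868856 in Ncx1+/- and 52865499 in Ncx1-/-, with medians of 3907.5, 3503 and 3697 per nucleus, and any 2 libraries shared between 40 and 57 cell barcodes. A nucleus was gated by the share of its UMIs from marker genes. The cardiomyocyte gate (12 markers such as Ttn and Tnnt2) held 69.7% of the Ncx1+/+ nuclei (95% exact binomial interval 68.9 to 70.4) and 71.8% of the Ncx1+/- nuclei (71.0 to 72.6). The endothelial gate (14 markers such as Pecam1 and Cdh5), which takes in the endocardium, held 17.3% (16.7 to 18.0) and 16.3% (15.7 to 17). Its nuclei were less alike in depth, with medians of 4893.5 UMIs in Ncx1+/+, 4093 in Ncx1+/- and 3657 in Ncx1-/-. The erythroid gate held 4.06% and 4.23%, and 6.71% and 6.69% of nuclei were past both the cardiomyocyte and the endothelial cut and entered neither gate. All 12 cardiomyocyte and all 14 endothelial markers were detected in both libraries. Ungated nuclei with at least 3 epicardial markers were 64 in Ncx1+/+, 5 in Ncx1+/- and 88 in Ncx1-/-. Endothelial-gated nuclei with at least 3 cushion mesenchyme markers were 613, 347 and 95 in that order. In sums over all nuclei, fewer nuclei of a type and less RNA per nucleus cannot be told apart.

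The targeted gene was at an intermediate level in the library labelled Ncx1+/-. Slc8a1 lies at chr17:81373105-81738377 on the minus strand (mm10). In cardiomyocyte-gated nuclei Slc8a1 was at 16511 CPM (the gene's counts per 1000000 counts of the gate in that library) in Ncx1+/+, 8724 in Ncx1+/- and 1257 in Ncx1-/-, so that the Ncx1+/- level was 52.8% of the Ncx1+/+ level (52.6 to 53.1). In endothelial-gated nuclei, where Slc8a1 RNA was much scarcer, it was at 291, 145 and 23.6 CPM, or 50.02% of the Ncx1+/+ level (46.9 to 53.3). These endothelial values were 1.76%, 1.67% and 1.88% of the cardiomyocyte-gate levels. Cardiomyocyte markers stood in the endothelial gate at 7.11%, 7.35% and 9.39% of their own cardiomyocyte-gate levels, so the Slc8a1 RNA there lies within that background and is not read as an endothelial level. Of the genes within 5 Mb of Slc8a1, 43 were measured in the cardiomyocyte gate. Their median ratio was 0.987, and only Sult6b1, at 1.22 CPM in Ncx1+/+ and 1.86 in Ncx1+/-, was past 1.5-fold.

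The intermediate level was in part an average over unlike nuclei, which has to be stated before any other result. Among cardiomyocyte-gated nuclei with at least 2000 UMIs, a nucleus was called Slc8a1-low if its Slc8a1 share was at or below 27.4 UMIs per 10000, the 95th percentile of the Ncx1-/- nuclei. This cut was set after the data were seen, and it marks a range and not a cell type: 397 Ncx1+/- nuclei (5.05%) lay within a ratio of 25% above or below it. Slc8a1-low nuclei were 619 of 8598 in Ncx1+/+ (7.20%), 1668 of 7867 in Ncx1+/- (21.2%) and 94.99% in Ncx1-/-. With every nucleus thinned to 2000 UMIs, 23.4% of the Ncx1+/- and 7.78% of the Ncx1+/+ nuclei fell at or below the 95th percentile of Ncx1-/-. The low nuclei of Ncx1+/- were shallower than the rest, with medians of 3019 and 3879 UMIs, and when nuclei were thinned to 4000 UMIs, which leaves out 5613 Ncx1+/- nuclei, the shares were 10.4% and 2.11%.

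The Slc8a1-low nuclei of Ncx1+/- were concentrated among nuclei with Xist RNA. Xist is transcribed from the inactive X chromosome of female cells, and Ddx3y, Eif2s3y, Kdm5d and Uty lie on the Y chromosome. Both kinds of RNA were present in each pool, so nuclei were also divided into those with at least 2 Xist UMIs and no Y-linked UMI and those with Y-linked UMIs and no Xist UMI. Of all kept nuclei in Ncx1+/+, Ncx1+/- and Ncx1-/-, 46.5%, 44.8% and 27.4% were of the Y-linked kind. The Xist kind made up 31.0%, 31.7% and 49.0%, and the remaining nuclei were of neither kind. The Ncx1-/- pool thus had the converse balance, and the part of this in the graded order was not tested. Median UMIs per cardiomyocyte-gated nucleus were 3841 in Ncx1+/+ and 3775 in Ncx1+/- with Y-linked RNA, and 3935 and 3213 with Xist RNA. In the endothelial gate they were 4950 and 4425 with Y-linked RNA, and 4935.5 and 3738 with Xist RNA. The part of depth in the results by kind of nuclei was not tested. Of the Ncx1+/- cardiomyocyte nuclei with Xist RNA, 1103 of 2636 (41.8%) were Slc8a1-low, against 5.73% of those in Ncx1+/+. Among nuclei with Y-linked RNA the shares were 7.84% in Ncx1+/- (289 of 3687) and 6.89% in Ncx1+/+. The median Slc8a1 share in nuclei with Y-linked RNA was 179 UMIs per 10000 in Ncx1+/+, 99.1 in Ncx1+/- and 11.2 in Ncx1-/-. Ncx1+/- nuclei with Y-linked RNA thus lay at an intermediate level themselves, with few Slc8a1-low nuclei among them. In nuclei with Xist RNA the median was 131, 45.8 and 11.5. There the Ncx1+/- nuclei fell into a low and a high range rather than around a single level. The labels do not map nuclei to the 5 hearts of the pool, so which hearts gave the Slc8a1-low nuclei, and of which genotype those hearts were, was not tested. The main results below are therefore given over all nuclei of a gate and again over nuclei with Y-linked RNA, nuclei with Xist RNA or, in the cardiomyocyte gate, without the Slc8a1-low nuclei.

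**Figure D1:**
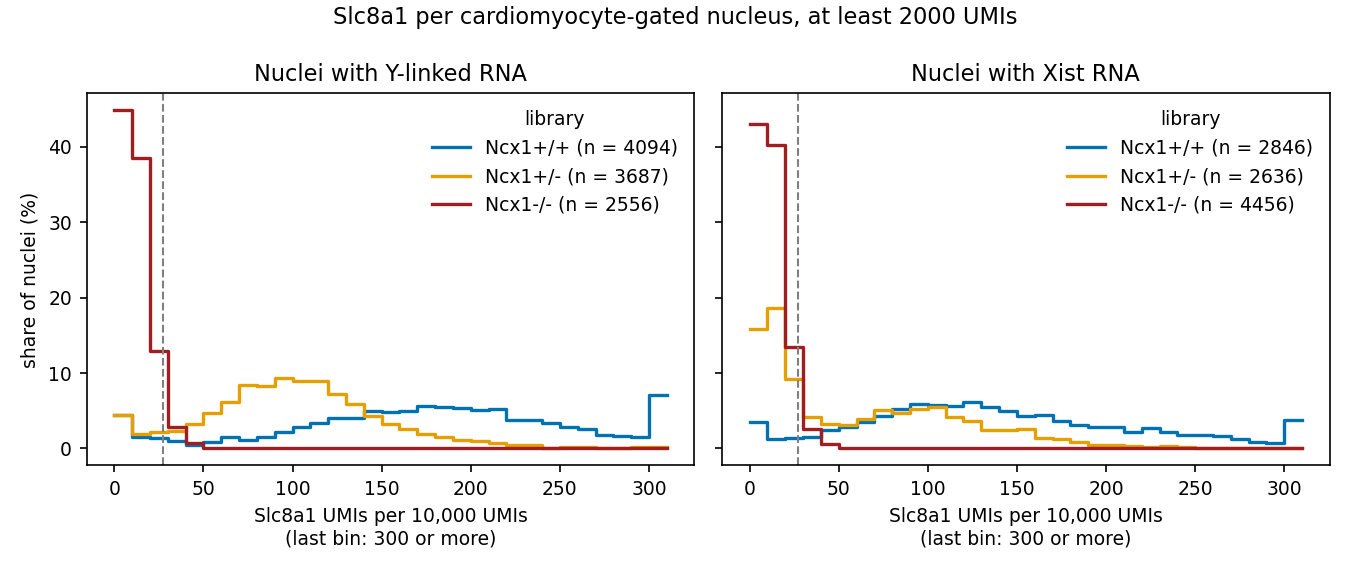
Share of cardiomyocyte-gated nuclei (%, vertical) by Slc8a1 UMIs per 10,000 UMIs (horizontal, the last bin holding 300 or more) in nuclei with Y-linked RNA (left) and nuclei with Xist RNA (right), 1 line per library; the dashed line is the cut of 27.4. With Y-linked RNA the Ncx1+/- nuclei lie around a median of 99.1, and with Xist RNA 41.8% of them lie in the range of the Ncx1-/- nuclei.

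Dpp6, an auxiliary subunit of Kv4 potassium channels, shows what this means for the other genes. In Slc8a1-low nuclei of Ncx1+/- it was at 670 CPM, near the 796 CPM of all Ncx1-/- nuclei, and in the remaining Ncx1+/- nuclei it was at 128 CPM, nearer the 86.5 CPM of the Ncx1+/+ nuclei above the cut. The Slc8a1-low nuclei of Ncx1+/+ were at 28.3 CPM, so a low Slc8a1 share alone did not go with high Dpp6 in every library. Within the Slc8a1-low nuclei of Ncx1+/-, those with Xist RNA held 898 CPM and those with Y-linked RNA 41.8 CPM.

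Kctd16, an auxiliary subunit of GABA-B receptors, followed the same order at 83.5 CPM in Slc8a1-low Ncx1+/- nuclei, 12.1 CPM in the other Ncx1+/- nuclei, 8.46 CPM in Ncx1+/+ nuclei above the cut and 102 CPM in Ncx1-/-. Ndufa4l2, a mitochondrial protein raised by hypoxia, was at 18.1, 2.15, 1.21 and 29.0 CPM in these 4 sets of nuclei. The metallothionein Mt1 was at 19.1, 5.11, 3.06 and 23.9 CPM, and Ier3, an early response gene, at 43.4, 13.7, 9.54 and 51.2 CPM. In each of these genes the Slc8a1-low Ncx1+/- nuclei lay closer to Ncx1-/- than to either set of nuclei above the cut. Xist itself was at 2147 CPM in the Slc8a1-low and 753 CPM in the other Ncx1+/- nuclei.

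The same held for the count of genes. A gene was called where the ratio of CPM was at least 1.5-fold, its interval excluded 1 and both sides together held at least 100 counts. Slc8a1-low Ncx1+/- nuclei against Ncx1+/+ nuclei above the cut gave 991 genes higher and 380 lower of 12423 measured (7.98% and 3.06%). The other Ncx1+/- nuclei against the same Ncx1+/+ nuclei gave 84 higher and 91 lower of 13173 (0.638% and 0.691%). Within the Ncx1+/- library, 570 genes were higher and 282 lower in the Slc8a1-low nuclei than in the rest (4.8% and 2.37% of 11886). All Ncx1-/- nuclei against Ncx1+/+ nuclei above the cut gave 1098 higher and 651 lower of 13589 (8.08% and 4.79%), and all Ncx1-/- nuclei against the Slc8a1-low Ncx1+/- nuclei gave 230 higher and 360 lower of 12609 (1.82% and 2.86%). These sets differ in depth, and the comparisons share nuclei. The Slc8a1-low nuclei of Ncx1+/+ were unlike those of Ncx1+/-. Within the Ncx1+/+ library 3366 genes were higher and 1039 lower in the Slc8a1-low nuclei than in the rest (27.5% and 8.48% of 12246), more than in any of the other comparisons. Malat1, a nuclear noncoding RNA, was at 21739 CPM in them against 58542 CPM in the Ncx1+/+ nuclei above the cut, and in Ncx1+/- it was at 68158 and 56763 CPM.

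**Figure D2:**
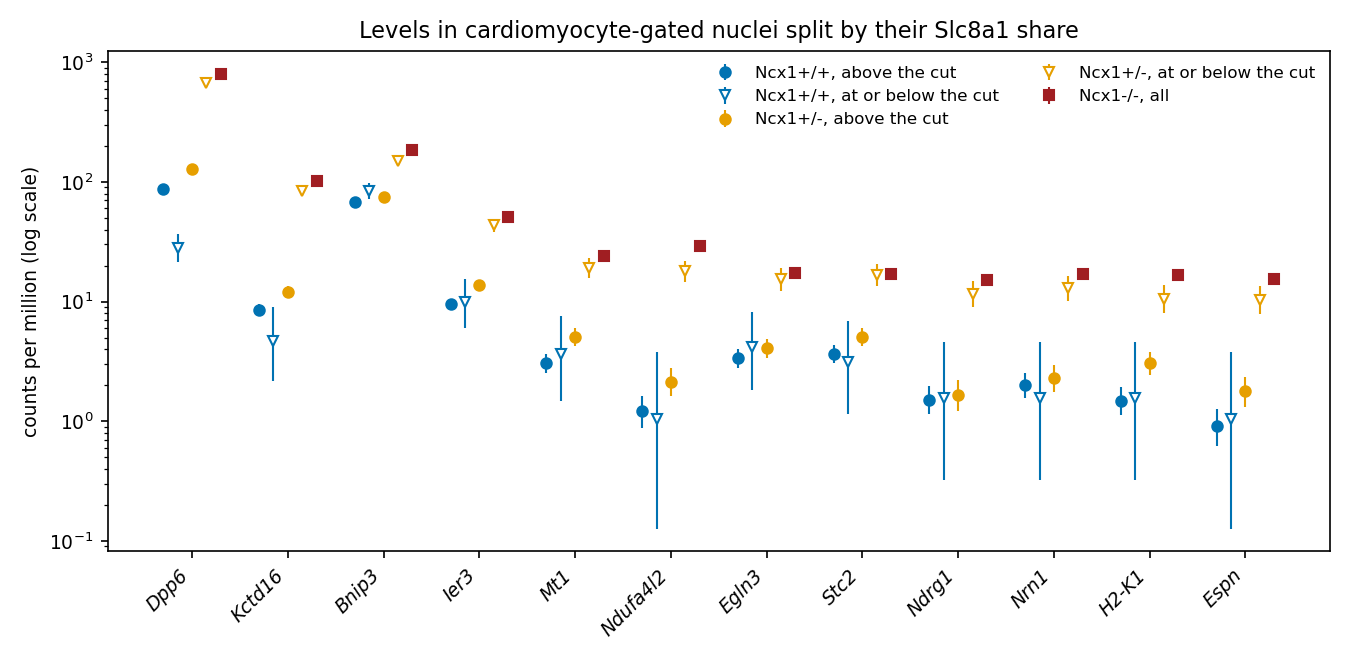
CPM (vertical, log scale) of 12 genes in cardiomyocyte-gated nuclei with at least 2000 UMIs, by library and by position against the Slc8a1 cut, with bars for the exact 95% counting interval. The Ncx1+/- nuclei at or below the cut (open orange triangles) lie near Ncx1-/- (red squares), and the Ncx1+/- nuclei above it (orange circles) lie near Ncx1+/+ (blue circles), for example 670 and 128 CPM for Dpp6.

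Over the whole cardiomyocyte gate, 125 of 13508 measured genes were higher in Ncx1+/- than in Ncx1+/+ (0.925%) and 81 were lower (0.6%), and 91.2% of genes differed by less than 25% of the lower level. Several of the genes furthest higher were those that set the Slc8a1-low nuclei apart. Dpp6 was at 83.7 CPM in Ncx1+/+, 220 in Ncx1+/- and 793 in Ncx1-/-, a ratio of Ncx1+/- to Ncx1+/+ of 2.63 (2.52 to 2.74). In nuclei with Y-linked RNA that ratio was 1.07 (0.997 to 1.15), and in nuclei with Xist RNA it was 5.55 (5.19 to 5.95). Kctd16 was at 8.38, 24.5 and 100 CPM in Ncx1+/+, Ncx1+/- and Ncx1-/-. Its ratio of 2.92 (2.57 to 3.33) was made up of 0.834 (0.641 to 1.08) with Y-linked RNA and 4.77 (3.97 to 5.77) with Xist RNA. Ndufa4l2, at 1.17, 4.99 and 29.3 CPM, gave 4.27 over the gate (3.07 to 6.05), 1.26 (0.633 to 2.53) with Y-linked RNA and 10.3 (5.93 to 19.5) with Xist RNA. Espn, an actin-bundling protein, gave 3.71, 1.26 and 9.37, and Rgs11, a regulator of G-protein signalling, 2.60, 1.05 and 5.41. The higher levels of these 5 genes thus lay in the nuclei with Xist RNA.

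Some genes higher in Ncx1+/- over the gate had ratios above 1 in both kinds of nuclei. Mt1 was at 3.28 CPM in Ncx1+/+, 7.82 in Ncx1+/- and 24.5 in Ncx1-/-, with ratios of Ncx1+/- to Ncx1+/+ of 1.76 (1.22 to 2.55) with Y-linked RNA and 4.04 (2.78 to 6.01) with Xist RNA. H2-K1, a class I histocompatibility heavy chain, gave 1.73 (0.991 to 3.06) and 4.13 (2.56 to 6.88), from 1.52, 4.43 and 16.8 CPM over the gate. Ier3 gave 1.40 (1.13 to 1.73) and 2.86 (2.31 to 3.57), from 9.42, 18.9 and 51.2 CPM. The interval of H2-K1 with Y-linked RNA holds 1. Without the Slc8a1-low nuclei the ratios of Mt1, H2-K1 and Ier3 were 1.67, 2.06 and 1.43, so each was smaller but above 1.

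The immediate early genes Fosb and Egr1, whose transcription follows depolarisation, growth factors or tissue handling within minutes, had the opposite pattern. Fosb was at 9.19 CPM in Ncx1+/+, 24.1 in Ncx1+/- and 2.07 in Ncx1-/-, which put Ncx1+/- highest. In nuclei with Y-linked RNA it was at 6.39 and 36.7 CPM in Ncx1+/+ and Ncx1+/-, and in nuclei with Xist RNA at 12.8 and 4.88 CPM, so the ratio turned from 5.74 (4.69 to 7.07) to 0.380 (0.271 to 0.525). Egr1 turned in the same way, from 4.32 (3.37 to 5.60) to 0.255 (0.144 to 0.427). Of 16 immediate early genes measured with Y-linked RNA 5 were higher and 0 lower, where 0.918% of all genes were called higher and 1.47% lower. Of 15 measured with Xist RNA 1 was higher and 3 were lower, where the shares were 3.84% and 1.05%.

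The genes furthest lower in the gate were of low level, and several had ratios below 1 in both kinds of nuclei. Cox7b2, an isoform of a cytochrome c oxidase subunit, was at 3.40 CPM in Ncx1+/+, 1.42 in Ncx1+/- and 1.32 in Ncx1-/-. Its ratio of Ncx1+/- to Ncx1+/+ was 0.416 over the gate (0.293 to 0.583), 0.329 with Y-linked RNA and 0.475 with Xist RNA. Ndst4, a heparan sulphate sulphotransferase, was at 5.87, 2.92 and 4.35 CPM, with 0.613 and 0.456. The protease Ctsk gave 0.515 and 0.228, and the neuropeptide precursor Cort 0.552 and 0.212. Smoc2, a secreted matricellular protein, was at 5.70 CPM in Ncx1+/+ and 0.195 in Ncx1+/- (2 counts) with Xist RNA, and at 0.778 and 1.07 with Y-linked RNA. Galnt18, a glycosyltransferase at 19.4 and 11.4 CPM, was lower with Y-linked RNA (0.542) and near 1 with Xist RNA (0.879, 0.683 to 1.13).

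**Figure D3:**
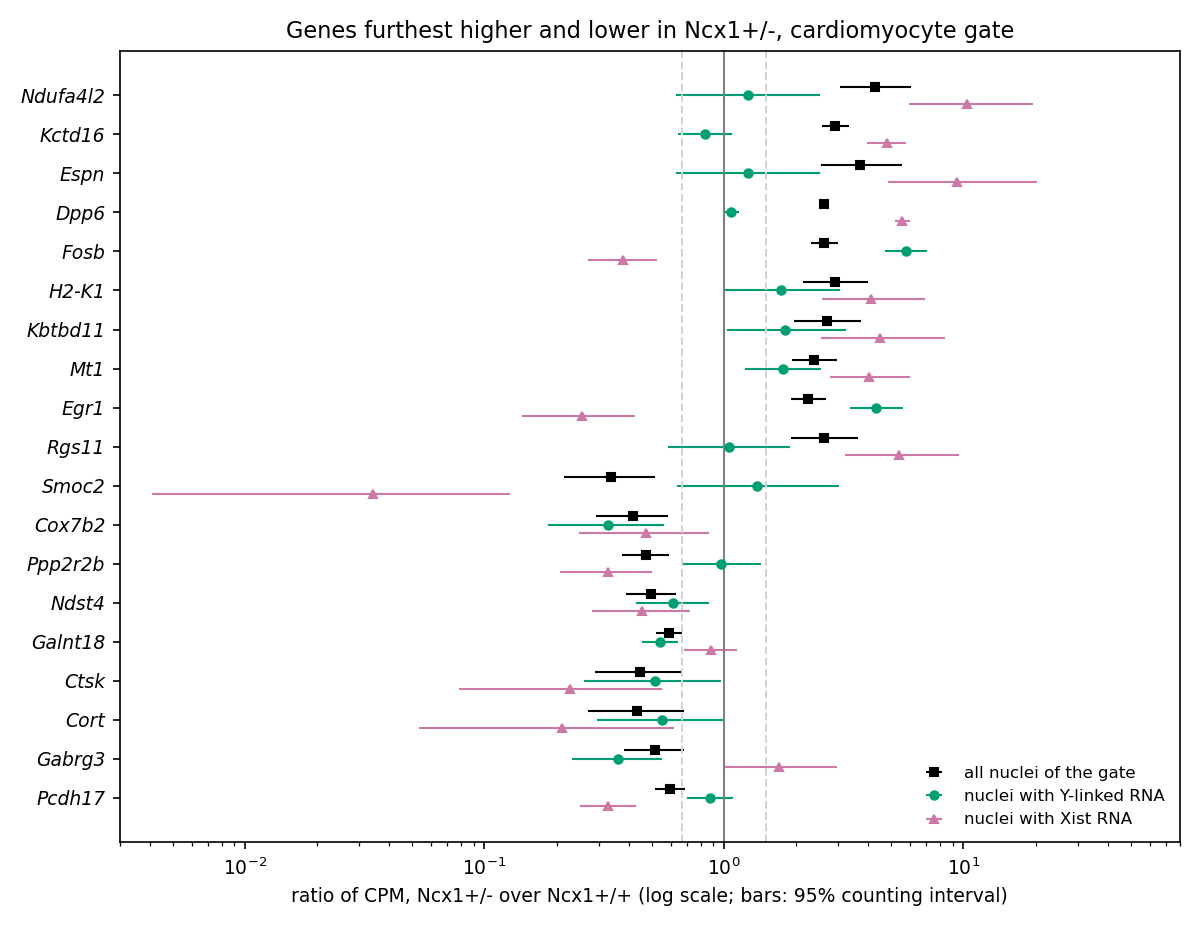
Ratio of CPM, Ncx1+/- over Ncx1+/+ (horizontal, log scale, bars for the 95% counting interval), of the genes furthest higher and furthest lower in the cardiomyocyte gate apart from Slc8a1, over all nuclei of the gate and in nuclei with Y-linked or Xist RNA; dashed lines mark 1.5-fold. Dpp6 sits at 1.07 with Y-linked RNA and 5.55 with Xist RNA, and Fosb at 5.74 and 0.380.

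Of the genes that handle calcium beside the exchanger, few were called. In the cardiomyocyte gate Atp2a2 was at 1144 CPM in Ncx1+/+, 1193 in Ncx1+/- and 1190 in Ncx1-/- (ratio of Ncx1+/- to Ncx1+/+ 1.04, 1.03 to 1.06). Ryr2 was at 5676, 5659 and 5490 CPM and Cacna1c at 3437, 3231 and 2721 CPM, with ratios of 0.997 and 0.940. The plasma membrane pump Atp2b1 was at 0.992. Of 37 measured genes of the calcium handling list 0 were higher and 1 was lower, the exchanger Slc8a3, which was at 4.52 CPM in Ncx1+/+ and 2.98 in Ncx1+/- (0.659, 0.511 to 0.846). These counts are near the shares of the whole gate (0.925% higher, 0.6% lower). The list's median log2 ratio was -0.01 beside 0.00 over all measured genes. None of the 37 measured sarcomere genes and 53 measured cilia genes was called, which is also near those shares, and the medians were 0.05 and -0.06.

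In the endothelial gate several hypoxia and glycolysis genes were higher in Ncx1+/-. Of 37 measured members 7 were higher and 0 lower in Ncx1+/- (Pdk1, Slc2a1, Tpi1, Bnip3, Ddit4, Ankrd37 and Egln3), where 150 of all 10516 measured genes were higher (1.43%) and 99 were lower (0.941%). The list's median log2 ratio was 0.37 beside 0.01 over all genes, and 1.64 for Ncx1-/- over the same Ncx1+/+ library. In nuclei with Y-linked RNA the median was 0.11. There 0 of 34 measured members were higher and 1 was lower (Pfkfb4, an enzyme that sets the rate of glycolysis, at 11.9 and 6.96 CPM), where 1.46% of all genes were called higher and 1.55% lower. In nuclei with Xist RNA the median was 0.70 and 22 of 32 were higher and 0 lower, where 3.56% of all genes were called higher and 1.22% lower. Per nucleus, the summed share of the list had a median of 21.3 UMIs per 10000 in Ncx1+/+, 23.2 in Ncx1+/- and 78.9 in Ncx1-/- with Y-linked RNA, and 22.0, 33.3 and 55.0 with Xist RNA. Of the Ncx1+/- nuclei with Xist RNA 39.3% were above the 95th percentile of their Ncx1+/+ counterparts, against 6.40% with Y-linked RNA. Slc8a1 is too scarce in endothelial nuclei for them to be divided by it.

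Ankrd37, an ankyrin repeat protein known as a target of HIF-1, was at 2.87 CPM in Ncx1+/+, 10.2 in Ncx1+/- and 43.8 in Ncx1-/- in the endothelial gate. Its ratio of Ncx1+/- to Ncx1+/+ of 3.54 (2.37 to 5.39) was 1.23 (0.621 to 2.40) with Y-linked RNA and 18.1 (7.39 to 57.4) with Xist RNA. Bnip3 was at 11.6, 25.1 and 89.5 CPM, with 1.08 (0.760 to 1.53) and 4.50 (3.1 to 6.68). Egln3 was at 12.8, 24.1 and 69.8 CPM, with 0.849 (0.601 to 1.19) and 3.84 (2.68 to 5.62). The promoters of Bnip3 and Egln3 are among those printed above. The glucose transporter Slc2a1 was at 48.2, 75.6 and 261 CPM, with 1.29 (1.10 to 1.52) with Y-linked RNA, under the 1.5-fold of a call, and 2.38 (1.96 to 2.90) with Xist RNA. Pdk1, which blocks entry of pyruvate into mitochondria, gave 1.21 (0.998 to 1.46) and 2.28 (1.86 to 2.81), and the growth factor Vegfa 0.980 (0.794 to 1.21) and 2.52 (2.0 to 3.18). Grin2c, a glutamate receptor subunit, was at 7.22, 10.5 and 42.3 CPM, with 0.751 (0.467 to 1.18) and 4.20 (2.36 to 7.88).

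Other endothelial genes had ratios above 1 with Y-linked and with Xist RNA. Igfbp3, an insulin-like growth factor binding protein, was at 16.3 CPM in Ncx1+/+, 32.3 in Ncx1+/- and 90.2 in Ncx1-/-, with ratios of Ncx1+/- to Ncx1+/+ of 1.73 (1.33 to 2.25) and 2.14 (1.59 to 2.90). Xaf1, an interferon-responsive gene, was at 4.76, 11.8 and 6.11 CPM, highest in Ncx1+/-, with 2.27 and 2.81. Glrx5, needed for iron-sulphur clusters, gave 2.09 and 1.57, the ferritin light chain Ftl1 1.88 and 1.40, and the fatty acid binding protein Fabp3 1.77 and 2.22. The 12 erythroid markers, all detected in this gate, summed to 306, 390 and 134 CPM in Ncx1+/+, Ncx1+/- and Ncx1-/-. The haemoglobin list, with 5 measured members, had a median log2 ratio of 0.44 over the gate (1 higher), 0.73 with Y-linked RNA (3 higher) and -0.14 with Xist RNA (0 higher). The part of erythroid RNA in these ratios was not tested.

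The endothelial genes furthest lower in Ncx1+/- fell into the converse groups. St6galnac5, a sialyltransferase, was at 23.6 CPM in Ncx1+/+, 10.4 in Ncx1+/- and 3.23 in Ncx1-/-. With Y-linked RNA it was at 28.9 and 8.23 CPM in Ncx1+/+ and Ncx1+/- (ratio 0.284, 0.196 to 0.402) and with Xist RNA at 12.8 and 16.5 CPM (1.29, 0.844 to 1.98). Robo2, a receptor for Slit guidance cues, gave 0.476 and 0.902, Dkk2, a modulator of Wnt signalling, 0.337 and 1.11, and Nckap5 0.407 and 0.879. Fam155a, a subunit of the NALCN sodium leak channel complex, was at 137, 79.0 and 3.40 CPM over the gate. In Ncx1+/+ it was at 176 CPM with Y-linked RNA and 79.7 CPM with Xist RNA, so these kinds of nuclei differed within the wild-type library as well. Lower in both were the zinc-sensing receptor Gpr39 (0.487 and 0.388), the matrix protein periostin, Postn (0.483 and 0.517), and Ccser1 (0.452 and 0.638).

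The growth factor Nrg1, which the endocardium supplies to the trabeculating myocardium, was at 2245 CPM in Ncx1+/+, 1993 in Ncx1+/- and 724 in Ncx1-/- in the endothelial gate. Its ratio of Ncx1+/- to Ncx1+/+ was 1.07 (1.05 to 1.10) with Y-linked RNA and 0.561 (0.540 to 0.583) with Xist RNA. The flow-responsive factor Klf2 was at 171, 176 and 149 CPM, with 1.24 (1.13 to 1.35) and 0.716 (0.631 to 0.812). Versican, Vcan, a matrix proteoglycan of the cushions, was at 740, 515 and 206 CPM, with 0.660 and 0.849. Of 31 measured cushion matrix genes 2 were lower (Col9a1 and Postn) and 1 was higher (Crtap), where 0.941% of all genes were lower and 1.43% higher. The summed cushion mesenchyme markers of the gate, all 11 detected, were at 931, 727 and 402 CPM. Without the nuclei that held at least 3 of these markers, 227 genes were called in the gate in place of 249, and the ratios were 0.292 for Postn, 0.522 for Ccser1, 0.564 for St6galnac5 and 0.645 for Dkk2. Of the Notch, flow-responsive and cilia lists, with 17, 26 and 46 measured members, 0 genes were called in this gate, which is near those shares. Sox17 and Gja4 of the flow-responsive list rose in graded order, as did 2.97% of all genes.

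**Figure D4:**
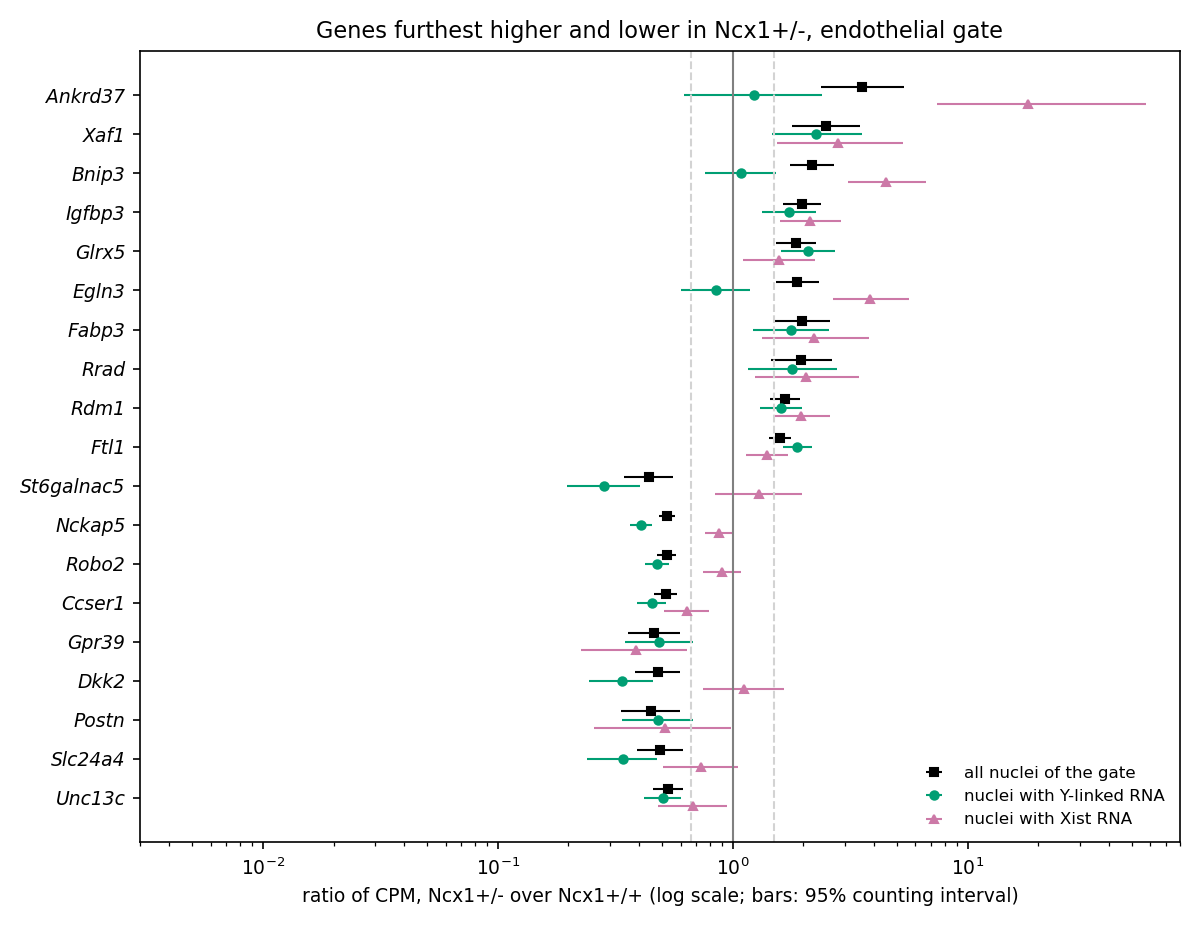
Ratio of CPM, Ncx1+/- over Ncx1+/+ (horizontal, log scale, bars for the 95% counting interval), of the genes furthest higher and lower in the endothelial gate apart from Slc8a1, over all nuclei of the gate and in nuclei with Y-linked or Xist RNA; dashed lines mark 1.5-fold. Ankrd37, Bnip3 and Egln3 lie at 18.1, 4.50 and 3.84 with Xist RNA and at 1.23, 1.08 and 0.849 with Y-linked RNA, and St6galnac5 and Dkk2 at 0.284 and 0.337 with Y-linked RNA and at 1.29 and 1.11 with Xist RNA.

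Over all nuclei, 147 of 14419 measured genes were higher in Ncx1+/- (1.02%) and 130 were lower (0.902%). The genes furthest higher were largely those of the cardiomyocyte gate, with Ndufa4l2 at 0.937 CPM in Ncx1+/+, 4.60 in Ncx1+/- and 26.9 in Ncx1-/-. Among the genes furthest lower, Epha3, an ephrin receptor, was at 22.1, 11.1 and 8.36 CPM, and Sorcs1, a sorting receptor, at 11.8, 5.93 and 5.03 CPM. In nuclei with Xist RNA the ratio of Epha3 was 1.29. Prl8a2, a hormone of the decidua and placenta, was at 1.52, 0.389 and 5.45 CPM.

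A gene was called graded where both steps, from Ncx1+/+ to Ncx1+/- and from Ncx1+/- to Ncx1-/-, differed by at least 25% of the lower level in 1 direction with intervals that excluded 1. Both steps share the Ncx1+/- library, so the counts are descriptive. In the cardiomyocyte gate 165 of 14392 genes rose in this order (1.15%) and 59 fell (0.41%). In the endothelial gate 329 of 11083 rose (2.97%) and 129 fell (1.16%), and over all nuclei 199 of 15203 rose (1.31%) and 133 fell (0.875%). Ncx1+/- lay between the other libraries in 53.7%, 59.0% and 58.0% of measured genes in those 3 scopes.

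The graded genes were then read within each kind of nuclei. Of the 165 rising genes of the cardiomyocyte gate 105 were measured with Y-linked RNA, and 39 of them were past this step between Ncx1+/+ and Ncx1+/- there, where 5.24% of all genes were that much higher and 5.4% that much lower. With Xist RNA 84 of 97 measured were past it, where 11.1% of all genes were higher and 4.15% lower. Without the Slc8a1-low nuclei 63 of 132 were past it, with a median log2 ratio of 0.34, where 3.52% of all genes were higher and 2.03% lower. The rising genes were chosen on the sum of these nuclei, so they had to be higher in at least some of them. The 59 falling genes of the cardiomyocyte gate, Slc8a1 among them, were chosen in the same way. Of these, 28 of 46 measured were past the step with Y-linked RNA and 19 of 33 with Xist RNA. Without the Slc8a1-low nuclei 27 of 57 were past it. The shares of all genes that much lower were 5.4%, 4.15% and 2.03% in that order. In the endothelial gate 160 of 275 measured rising genes were past the step with Y-linked RNA (6.03% of all genes higher, 4.72% lower) and 148 of 227 with Xist RNA (9.1% higher, 4.61% lower). Of the falling genes there, 84 of 123 and 50 of 96 were past it.

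Among the cardiomyocyte genes that rose in this order, Sncb, or beta-synuclein, went from 0.0508 CPM (2 counts) in Ncx1+/+ to 1.00 in Ncx1+/- and 7.07 in Ncx1-/-, a first step of 19.8 with a counting interval of 5.06 to 170. Trib3, a target of the integrated stress response, went from 0.457 to 1.45 and 6.29 CPM, and Chac1, a glutathione-degrading enzyme of the same response, from 0.0508 (2 counts) to 0.679 and 3.52 CPM, a first step of 13.4 (3.30 to 117). Each was at under 10 CPM in all 3 libraries. In nuclei with Y-linked RNA, Ncx1+/- held 0.252 CPM of Sncb and 0.126 CPM of Chac1, near the level of single counts. Of the genes that fell, the serotonin receptor Htr2a went from 2.16 to 1.06 and 0.450 CPM, the mucin Muc13 from 2.74 to 1.68 and 0.574 CPM, and the water channel Aqp4 from 3.89 to 2.45 and 1.6 CPM. The ratio of Muc13 was 0.506 (0.303 to 0.825) with Y-linked RNA and 0.561 with Xist RNA, where its interval holds 1 (0.302 to 1.01).

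Of the rising genes, 35 were shared by both gates. Among the 10905 genes measured in both, 88 rose in the cardiomyocyte and 323 in the endothelial gate, so the shared genes were 39.8% and 10.8% of these. The 39.8% stands beside the 2.97% of all endothelial-gate genes that rose. The 10.8% stands beside the 1.15% of all cardiomyocyte-gate genes that rose. These base shares are over all genes measured in the gate. The shared genes included Bnip3, Ddit4, Egln3, Gapdh and the lactate exporter Slc16a3 of the hypoxia and glycolysis list, and Dpp6, Ndufa4l2, Mt1 and Ier3. Slc16a3 and Gapdh had ratios above 1 in both kinds of nuclei in the cardiomyocyte gate, each under the 1.5-fold of a call. In the cardiomyocyte gate Slc16a3 was at 43.1 CPM in Ncx1+/+, 55.8 in Ncx1+/- and 83.6 in Ncx1-/-, with ratios of Ncx1+/- to Ncx1+/+ of 1.31 (1.19 to 1.45) with Y-linked and 1.27 (1.12 to 1.43) with Xist RNA. Gapdh, at 386, 498 and 635 CPM, gave 1.35 (1.31 to 1.40) and 1.20 (1.15 to 1.251). For Bnip3 in that gate the ratios were 0.973 (0.898 to 1.05) and 1.91 (1.74 to 2.09). Genes that fell in both gates were 5: Thbs1, Dlg2, Ano1, Htr2a and Slc8a1. They were 16.1% of the cardiomyocyte and 4% of the endothelial falling genes measured in both. The 16.1% stands beside the 1.16% of all endothelial-gate genes that fell, and the 4% beside the 0.41% of all cardiomyocyte-gate genes. Slc8a1 in the endothelial gate lay within the cardiomyocyte background described above. The shared rising genes also held Hrc and Myl7 of the calcium handling and sarcomere lists. The part of that background in the genes shared by both gates was not tested.

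Across the fixed lists, the hypoxia and glycolysis list had a median log2 ratio of 0.22 in the cardiomyocyte gate (3 of 43 measured members higher and 0 lower, beside 0.925% and 0.6% of all genes), 0.05 with Y-linked RNA, 0.31 with Xist RNA and 0.09 without the Slc8a1-low nuclei. In that last set 0 of 43 members were past 1.5-fold (0.638% of all genes higher, 0.691% lower). In the Slc8a1-low Ncx1+/- nuclei against Ncx1+/+ nuclei above the cut 25 of 42 were higher, where 7.98% of all genes were.

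The list of RNA encoded by the mitochondrial genome had a median of 0.50 in the cardiomyocyte gate, where 5 of 13 measured members were higher beside 0.925% of all genes. With Y-linked RNA the median was 0.39 (5 of 13 higher, beside 0.918%), and with Xist RNA 0.69 (10 of 12, beside 3.84%). In the endothelial gate it was 0.74 (8 of 10 higher, beside 1.43%), with 0.71 (10 of 10, beside 1.46%) and 0.94 (9 of 9, beside 3.56%) in the same 2 kinds of nuclei. The ribosomal protein list had medians of 0.33 and 0.44, and 0.36 and 0.45 with Y-linked RNA. For example mt-Nd1, a subunit of respiratory complex I, was at 71.3, 111 and 63.6 CPM in the cardiomyocyte gate, and Rplp1, a ribosomal stalk protein, at 93.2, 146 and 124 CPM. Such transcripts can reach a nuclei preparation with cytoplasm. The median mitochondrial share of UMIs was 0.0383% in Ncx1+/+, 0.0581% in Ncx1+/- and 0.0460% in Ncx1-/-. The part of this in the 2 lists was not tested.

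**Figure D5:**
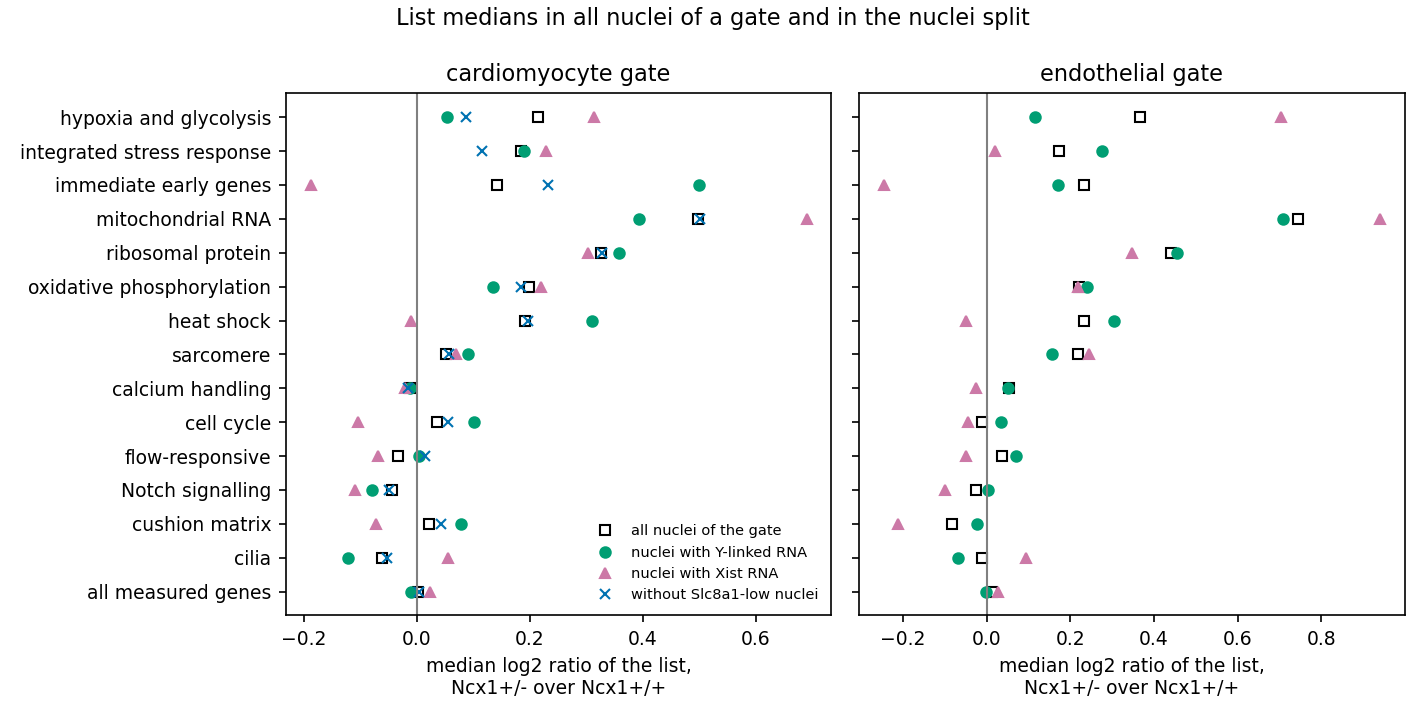
Median log2 ratio of CPM, Ncx1+/- over Ncx1+/+ (horizontal), of 14 gene lists and of all measured genes in the cardiomyocyte gate (left) and the endothelial gate (right), over all nuclei of the gate, in nuclei with Y-linked or Xist RNA and without Slc8a1-low nuclei. The hypoxia and glycolysis list lies at 0.11 with Y-linked and 0.70 with Xist RNA in the endothelial gate, while the mitochondrial list lies above 0 in every set.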

How the data were processed

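Whole hearts at embryonic day 9.5 were profiled by single-nucleus RNA sequencing (10x Genomics kit v3.1, per the labels' protocols), with 1 library of 5 pooled hearts per genotype. The authors deposited UMI counts per gene and nucleus, made with Cell Ranger 6.1.0 and mm10 per the submitters' processing notes; the file headers name version 9.0.0. No doublet caller was applied for the main values, and nuclei past 2 gate cuts entered no gate.

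From these counts, nuclei with at least 500 genes were kept and gated by marker UMIs per 10000, with cuts of 44.7 (cardiomyocyte), 17.8 (endothelial) and 70.8 (erythroid) at the lowest point between the modes. Of the kept Ncx1+/- nuclei 619 (5.03%) lay within 1.5-fold of the cardiomyocyte cut and 582 (4.73%) within 1.5-fold of the endothelial cut. Counts were summed per library and gate, scaled to CPM and compared as ratios with exact conditional (Clopper-Pearson) 95% intervals, for genes with at least 100 counts. A gate's own markers were left out. UMIs limit the intervals to counting error.

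Named genes are the 10 furthest higher and lower by the interval bound nearest 1 and the 8 most graded per direction, without predicted, ribosomal, mitochondrial, haemoglobin and sex-linked genes, plus a fixed set around Slc8a1, members of 32 fixed lists that were called or graded, and some members of those lists or genes rising in both gates named after their values were seen. The members and lists were chosen with earlier results of these data known. Division by Xist, Y-linked or Slc8a1 RNA and removal of cushion-marker nuclei were added after seeing the data. On simulated counts with known changes the rule was checked for recovery. Genes were placed on mm10 through GENCODE M21 (27722 of 27998 matched). Tools were Python 3.11.15, numpy 2.4.6, scipy 1.17.1, pandas 2.3.3, scanpy 1.11.5 (Scrublet) and, for alternative scalings only, R 4.3.3 with the size factors of edgeR 4.0.16 and DESeq2 1.42.0.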

Additional observations from a re-analysis of the deposited data

Results flagged for a closer look

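In the cardiomyocyte gate, the ratio of Ncx1+/- to Ncx1+/+ of 2 immediate early genes lay on opposite sides of 1 in nuclei with Y-linked and with Xist RNA. Egr1 stood at 4.32 and 0.255, and Fosb at 5.74 and 0.380. In the endothelial gate the phosphodiesterase Pde1a stood at 0.334 with Y-linked RNA (21.5 CPM in Ncx1+/+ and 7.17 in Ncx1+/-) and at 2.35 with Xist RNA (2.99 and 7.03). The protease gene Tll1 was lower in Ncx1+/- in the cardiomyocyte gate, at 18.9 and 12.5 CPM (0.660, 0.584 to 0.744), and higher in the endothelial gate, at 119 and 182 CPM (1.53, 1.42 to 1.64). It was the 1 gene called in opposite directions in the 2 gates. With 1 library per genotype none of these differences was tested.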

How the results depend on the processing

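No paired analysis was possible because each genotype is 1 library. Called genes were recounted under TMM or DESeq2 scaling, 1000 genes per nucleus, gate cuts moved 1.5-fold and without the top 8% of Scrublet scores. Their counts stayed within 1.5 times, and no named gene called in the main values changed direction. Direction was not read for named genes that were not called. Under all settings other than those added after the data were seen, 10 results for called named genes no longer met the ratio and interval of a call. A limit of 5% mitochondrial UMIs removed 0 nuclei. A minimum of 10 counts gave 589, 484 and 569 called genes over all nuclei, the cardiomyocyte and the endothelial gate, where 100 counts gave 277, 206 and 249. The lower part of the endothelial nuclei by cardiomyocyte markers gave 276 graded genes, not 458. The cardiomyocyte share of Ncx1+/+ nuclei was 71.2% without the top Scrublet scores and 67.7% at the lower cut, and of Ncx1+/- nuclei 73.3% and 69.4%, and 73.1% at the higher cut. The endothelial share of Ncx1+/+ nuclei was 18.0% at 1000 genes, 18.6% without those scores, 18.2% at the higher and 16.1% at the lower cut, and of Ncx1+/- nuclei 17.5%, 17.2% and 14.8% for the last 3. Thinned to 4000 UMIs, 2.11% of Ncx1+/+ and 10.4% of Ncx1+/- nuclei were in the Ncx1-/- range.

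The divisions by sex-linked RNA or Slc8a1 were chosen after seeing the data, and they moved more. Called genes were 620 over all nuclei and 549 in the cardiomyocyte gate with Xist RNA. With Y-linked RNA 168 were higher and 217 lower over all nuclei, and 110 higher and 176 lower in the cardiomyocyte gate. Each division holds only part of a library's UMIs, and the part of that in these counts was not tested. Graded genes in the cardiomyocyte gate were 128 with Y-linked RNA and 126 without Slc8a1-low nuclei, not 224, and in the endothelial gate 249 with Xist RNA. The hypoxia and glycolysis median over all nuclei was 0.28, and 0.12 with Y-linked and 0.39 with Xist RNA. It was 0.054 with Y-linked RNA and 0.087 without Slc8a1-low nuclei in the cardiomyocyte gate, and 0.11 and 0.70 in the endothelial gate. A crossing of 1 was read only for named genes called higher or lower in that scope. Over all nuclei the ratios that crossed were Kctd16 0.93, Nrn1 0.74, Smoc2 1.11 and Synpr 1.11 with Y-linked RNA, and Fosb 0.42 and Epha3 1.29 with Xist RNA. In the cardiomyocyte gate they were Kctd16 0.83 and Smoc2 1.38 with Y-linked RNA, and Fosb 0.38, Egr1 0.25 and Gabrg3 1.70 with Xist RNA. In the endothelial gate they were Egln3 0.85, Plekha2 0.83 and Aplnr 0.88 with Y-linked RNA, and St6galnac5 1.29, Dkk2 1.11 and Pde1a 2.35 with Xist RNA. The cause was not tested.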

Other observations

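Genes of the histone clusters, noticed after the values were seen, were higher in Ncx1+/-. Of 46 measured over all nuclei 17 were past 1.5-fold higher and 0 lower, where 1.02% of all genes were higher, and 45 had a higher level in Ncx1+/- than in Ncx1+/+, with a median log2 ratio of 0.52 against 0.34 for Ncx1-/- over Ncx1+/+. In the cardiomyocyte gate 15 of 40 were higher (0.925% of all genes) and in the endothelial gate 5 of 15 (1.43%). Hist1h2bj, coding for an H2B histone, was at 5.36 CPM in Ncx1+/+, 8.35 in Ncx1+/- and 4.74 in Ncx1-/- in the cardiomyocyte gate. The cell cycle list, whose 48 measured members include the replication genes Mcm2 to Mcm7, had a median of 0.04 in that gate with 0 members called.

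Some genes called higher in Ncx1+/- were above the Ncx1-/- library too. They were at least 26 of 147 over all nuclei, 20 of 125 in the cardiomyocyte gate and 11 of 150 in the endothelial gate. Among them were Xaf1 in the endothelial gate and Fosb, Egr1 and Junb in the cardiomyocyte gate. Rplp1, highest in Ncx1+/- by level alone in the cardiomyocyte gate, is not in these counts. By plain order of the 3 levels, 22.2%, 26.1% and 17.4% of all measured genes, called or not, were highest in Ncx1+/- in those scopes. These shares and the counts follow unlike rules and are not compared. Junb was at 4.8, 7.76 and 4.94 CPM in Ncx1+/+, Ncx1+/- and Ncx1-/-.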
